A study of Oryza sativa with 6 samples.

Results

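The ribosomal proteins described here are the rice probes of a 2-colour oligonucleotide array whose description holds the words ribosomal protein. Probes described as chloroplast, mitochondrial, plastid, 30S, 50S or kinase were left out. The rule used descriptions alone and no measured value. It found 141 of 21495 rice probes, and a probe is given here by the accession (AK) of its cDNA. Of these, 137 were among the 20531 probes bright enough to be tested, 136 had a value in the comparison of the lines, and 131 in the comparison of conditions within a line. By name, 65 probes belonged to the large subunit and 60 to the small subunit, while for 16 the description gave no subunit. The descriptions gave 63 protein names to 117 of the probes. No positions or sequences are given, since 0 of the accessions were found in the reference gene table used here.

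The cytosolic ribosome of plants joins a large 60S and a small 40S subunit, built from ribosomal RNA and many proteins, and makes most proteins of the cell. Each of its proteins is encoded by several nuclear genes in plants, and their transcripts are among the most abundant of growing tissue such as root tips. Ribosomal RNA is a large store of phosphorus in a plant, so ribosome content is often measured when phosphorus supply is studied. Plastids and mitochondria have ribosomes of a bacterial type of their own, and names such as L12, S5 or S9 are used in both kinds for different proteins.

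Root RNA came from the japonica cultivar Nipponbare and from 6-4, a single near-isogenic line that carries inserts of the indica cultivar Kasalath. Plants of both lines grew in 12 L pots of Andosol, a volcanic soil, either high in phosphorus (P), here called control, or without P, here called P-deficient, and 1.6 g of root was extracted. The lines were hybridised together, condition by condition, on 3 control and 3 P-deficient arrays. The series calls the 3 samples of each line and condition biological replicates, and the labels do not say how many plants went into a sample. Array labels gave 6-4 in the red dye (Cy5) on control 2, P-deficient 1 and P-deficient 3, and Nipponbare in Cy5 on the other arrays. Line differences are therefore ratios within an array, and the response to P deficiency is a difference between arrays. A ratio between the lines can hold both the amount of a transcript and the binding of a Kasalath form to the probe, and these cannot be told apart here.

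Over local background, the median signal of rice spots was 3.25 to 6.94-fold in the green dye (Cy3) and 7.32 to 9.83-fold in Cy5. Negative control spots stood 4.8 and 5.06 times above background in Cy3 on P-deficient 2 and control 2, and 1.19 to 2.86 times on the other arrays. The image software was version 8.1 on replicate 3 of both conditions and 7.1 on the others, per the file headers. Of 9 root markers, probes described as RCc2, RCc3 or root-specific, 8 were well above background in all 12 channels. So were 10 of 17 probes for the leaf genes of the small Rubisco subunit and the chlorophyll-binding proteins. Precision is limited by there being 3 arrays a condition.

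Ribosomal protein probes were bright. Of the 141, 126 were well above background in all 12 channels, and every tested one was in at least 9 channels. Their median log2 level, the mean of both channels, was 11.86 over 6 arrays, against 8.54 for all tested probes. Level between probes depends on how each probe binds, so the levels say nothing of which protein was made most. A saturated channel was seen for 4 probes, and 7 probes had at least 1 spot left out as an outlier.

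Transcripts of ribosomal proteins stood slightly higher in roots of 6-4 than in Nipponbare as a group, but no single probe passed the test. The median log2 ratio of 6-4 over Nipponbare, as the mean of both conditions, was 0.12 over 136 probes, and 0.003 over all 20528 probes tested. The ratio was above 0 for 107 of the 136, which is 78.7%, while 51.4% of all tested probes had a ratio above 0. At an adjusted p below 0.05 (limma, Benjamini-Hochberg over all probes) 0 of the 136 differed between the lines, where 0.926% of all probes did. At an unadjusted p below 0.05 the count was 49 of 136, beside 17.1% of all probes. Without control 3, 2 of 135 passed at the adjusted threshold, which is 1.48% beside 4.09% of all probes.

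On single arrays the group's median ratio was 0.075, 0.007 and 0.28 in control 1, 2 and 3. In P-deficient 1, 2 and 3 it was 0.14, 0.28 and 0.003. All 6 medians were above 0, but those of control 2 and P-deficient 3 lay almost at the all-probe medians of 0.006. These are arrays with 6-4 in Cy5, and the 2 highest medians came from arrays with Nipponbare in Cy5. P-deficient 1, also with 6-4 in Cy5, stood at 0.14, above control 1 with Nipponbare in Cy5 at 0.075. The fitted dye term, Cy5 over Cy3, had a median of -0.098 for ribosomal protein probes and 0.011 for all tested probes. The dye term is part of the fit of the line effect. With no dye term the median mean line effect was 0.12, with 108 of 137 probes above 0. The dye orientations of the 2 conditions mirror each other, so the dye term cancels in the mean of both conditions. For a probe measured on every array, that mean is thus the same with or without the term. The value without the term therefore shows nothing of the part of the dye in the group's shift, which was not tested.

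**Figure D1:**
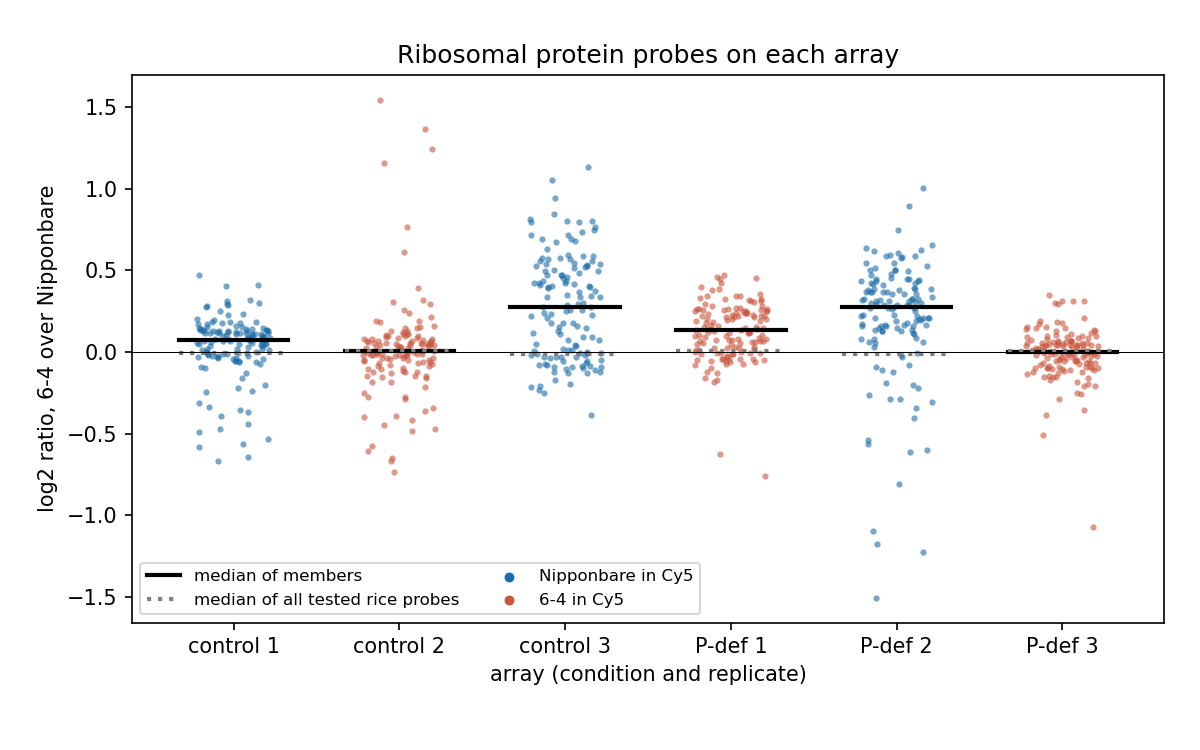
Log2 ratio of 6-4 over Nipponbare (vertical axis) of every tested ribosomal protein probe on each of the 6 arrays (horizontal axis), coloured by the line labelled with Cy5. Black bars are the members' medians, from 0.003 to 0.28, and dotted bars the medians of all tested rice probes. The members sit above the other probes most clearly on control 3 and P-deficient 2.

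Among 1013 other probes with a level above the ribosomal proteins' median, the median line ratio was -0.025 and 44.5% were above 0. Most root markers had a mean ratio above 0 too, 7 of 8 tested probes, with a median of 0.27. Of them 1 passed the test (limma), 12.5% beside 0.926% of all probes. Their array medians were 0.207, 0.062 and 0.101 under control and 0.194, 0.455 and 0.14 under P deficiency. The order of the arrays differed from that of the ribosomal proteins. Their part in the ribosomal protein ratios was not tested. In whole roots, more cells of one type and more RNA per cell cannot be told apart.

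Large-subunit proteins had a median log2 ratio of 0.14, with 51 of 62 probes above 0. Small-subunit proteins had a median of 0.10, with 41 of 58 above 0. The 16 probes with no subunit given had a median of 0.10, and 15 of them were above 0. The subunits overlapped over nearly their whole range, from -0.36 to 0.34 in the large and from -0.25 to 0.45 in the small subunit.

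**Figure D2:**
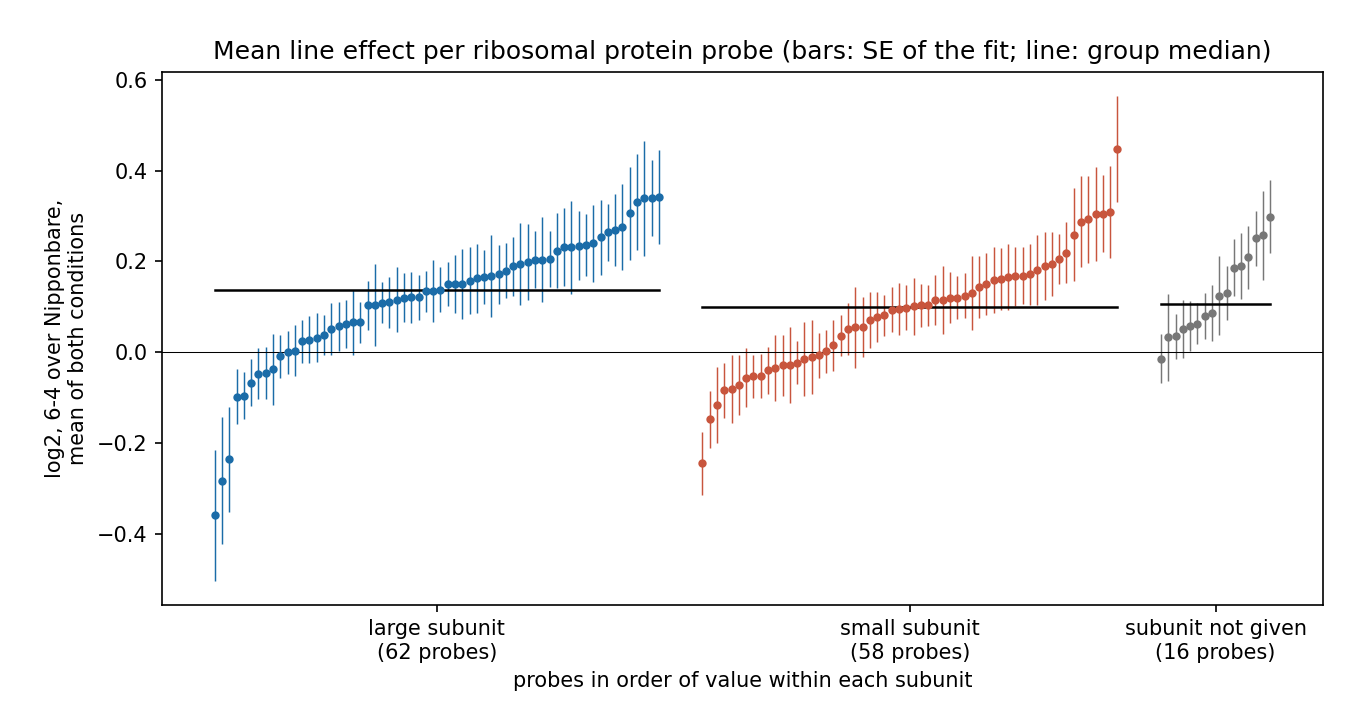
Mean line effect (log2 6-4 over Nipponbare, vertical axis) of 136 ribosomal protein probes in order of value within each subunit (horizontal axis), with the SE of the fit as bars and the group medians of 0.14, 0.10 and 0.10 as black lines. Of the 136 points, 107 lie above 0.

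The highest mean line effect belonged to the S13 probe AK059505, a small-subunit protein described after a maize cytoplasmic sequence. Its log2 ratio was 0.29, -0.40 and 1.14 on control 1, 2 and 3 and 0.47, 1.01 and 0.18 on P-deficient 1, 2 and 3. The ratio was below 0 on control 2 and above 0 on the other 5 arrays. The fit gave 0.45 ± 0.12 (SE, adjusted p = 0.145). Next came AK102574, a large-subunit probe described as putative L10 of Arabidopsis. Its ratios were 0.17, 0.094 and 0.80 under control and 0.45, 0.64 and -0.099 under P deficiency, and the fit gave 0.34 ± 0.10 (adjusted p = 0.193). L41, one of the shortest proteins known, was measured by AK058924 at 0.34 ± 0.084 (adjusted p = 0.131), and the 60S probe AK063752 stood at 0.34 ± 0.13 (adjusted p = 0.256).

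Among the 131 ribosomal protein probes measured on every array, 10 had a ratio on the same side of 0 on all 6 arrays, 9 above and 1 below. That is 7.63%, where 5.4% of all probes had such a ratio, 2.53% above and 2.87% below. The L30 probe AK062929 had the smallest p of them, with ratios of 0.30, 0.081 and 0.59 under control and 0.25, 0.36 and 0.001 under P deficiency. Its mean effect was 0.26 ± 0.063 (adjusted p = 0.121). The L29 probe AK105054 stood at 0.27 ± 0.079 and the L41 probe AK103216 at 0.21 ± 0.062. On P-deficient 3 the L29 ratio was 0.007 and the L41 ratio 0.071, so the smallest of the 6 values lay near 0 for each of these 3 proteins.

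The single probe below 0 on all 6 arrays was AK109085, described after maize S6, the small-subunit protein that S6 kinase phosphorylates. Its ratios were -0.53, -0.42 and -0.13 under control and -0.040, -0.29 and -0.064 under P deficiency, and the mean effect was -0.25 ± 0.070 (adjusted p = 0.176). It was well above background in 9 of 12 channels, with 6-4 measured on 1 of the 3 control arrays. The other S6 probes, AK061827 and AK069465, had mean effects of 0.12 and 0.19. The probes named S6 therefore did not share a direction.

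The lowest mean effects came from probes with mixed ratios. AK108635, described after L4 of a catfish, a protein of the exit tunnel wall, had ratios of 0.019, -0.36 and -0.028 under control. Under P deficiency they were -0.76, -1.10 and 0.067. The mean effect of -0.36 ± 0.14 (adjusted p = 0.278) thus came mainly from 2 arrays. The L7A probe AK108838 followed at -0.28 ± 0.14, and the 60S probe AK110540, after AK109085, at -0.24 ± 0.12.

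Probes that share a protein name could differ or be much alike. Of the names, 30 had over 1 tested probe, 83 probes in all. The 3 L34 probes had mean effects between 0.22 and 0.24, the 2 L22 probes 0.24 and 0.28, and the 3 S7 probes between 0.17 and 0.29. The 4 S13 probes ran from -0.053 to 0.45, the 5 S12 probes from -0.023 to 0.21, and the 6 S5 probes from -0.12 to 0.13. Probes of one name may belong to different genes of a family or to near-identical copies, which the array cannot separate.

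The stalk proteins of the P family, which bring elongation factors to the large subunit, had 6 tested probes. Their mean line effects lay between -0.038 and 0.30, and 5 of 6 were above 0. The P0 probe AK064857 had ratios of 0.28, -0.12 and 0.41 under control and 0.084, 0.50 and -0.35 under P deficiency. The 6 probes of ubiquitin fusions, in which a ribosomal protein is made joined to ubiquitin, lay between -0.084 and 0.26, with 3 above 0.

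In each condition alone, a few probes did pass the test, and some of them had opposite signs in the 2 conditions. Under control 10 of 136 passed, 6 higher in 6-4 and 4 lower. That is 7.35%, beside 12.9% of all probes (6.74% higher and 6.19% lower). Under P deficiency 5 passed, 2 higher and 3 lower, which is 3.68% beside 8.94% (4.32% higher and 4.62% lower). The difference between the conditions passed for 16, 9 with a higher ratio under P deficiency and 7 with a lower one, which is 11.8% beside 19.6% (9.38% higher and 10.3% lower). At an unadjusted p below 0.05 the counts were 21, 44 and 23, beside 30.8%, 30.4% and 34.1% of all probes. In this fit each share at the adjusted threshold was below that of all probes. Within software version 7.1 the share under P deficiency was above that of all probes, 22 of 135 or 16.3% beside 10.7%. With the authors' deposited ratios it was 2.21% beside 0.901%. The group's median ratio was 0.10 under control and 0.17 under P deficiency, and the median difference was 0.075, beside 0.006 for all probes and 0.041 for the 1013 bright probes that are no ribosomal proteins. The median under control was 0.035 without control 3 and 0.036 within software version 7.1. The median difference was 0.009 without control 1 and 0.031 without P-deficient 1, and it turned to -0.052 with median centring in place of loess and to -0.006 with no dye term. When replicate numbers were fitted as a block, 3 ribosomal protein probes passed under P deficiency (2.21% beside 3.43% of all) and 8 in the difference (5.88% beside 12.3%).

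The largest difference belonged to AK108323, a fusion of ubiquitin and S27a. Its log2 ratio was 0.083, 1.16 and -0.21 on control 1, 2 and 3, and -0.043, -1.50 and 0.020 on P-deficient 1, 2 and 3. Control 2 was far above and P-deficient 2 far below the other arrays, which lay near 0. The P-deficient 2 spot was not well above background in Cy3, the channel of 6-4 there. The fit, which gives part of each ratio to the dye, put the line effect at 0.57 ± 0.089 under control (adjusted p = 0.0207) and -0.73 ± 0.089 under P deficiency (adjusted p = 0.0168). The difference was -1.30 ± 0.13 (adjusted p = 0.00532). The other S27a probes behaved differently: the difference was 0.57 ± 0.14 for AK059242 (adjusted p = 0.0324) and did not pass for AK103890.

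AK063008, described after rat S16, had the same shape, with ratios of -0.44, 1.54 and -0.071 under control and 0.024, -1.18 and 0.057 under P deficiency. Its difference was -1.21 ± 0.17 (adjusted p = 0.00803). It was not well above background in Cy3 on control 2 and on P-deficient 2, the arrays at the ends of its range. The S3 probe AK063068, for a protein at the entry of the mRNA channel, had ratios of -0.090, 1.246 and -0.069 and then -0.17, -0.60 and 0.011. Its difference was -0.92 ± 0.19 (adjusted p = 0.0195), and the same 2 spots were dim in Cy3.

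The L19 probe AK059309, for a protein that bridges the subunits, had ratios of 0.042, 1.37 and 0.84 under control and 0.32, -0.61 and 0.024 under P deficiency. Its line effect under control, 0.89 ± 0.15 (adjusted p = 0.0233), was the highest of all ribosomal protein probes. The difference was -1.12 ± 0.23 (adjusted p = 0.0186). The L13A probe AK107661, described after a fungus, had ratios of -0.25, 0.77 and -0.032 and then -0.049, -0.81 and -0.037, with a difference of -0.74 ± 0.11 (adjusted p = 0.00865). Both probes were not well above background in Cy3 on P-deficient 2.

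Another pattern was seen for the L7A probe AK108838, described after a japonica rice mRNA. Its ratios were 0.30, 0.40 and -0.096 under control and -0.003, -1.23 and -1.07 under P deficiency. Under P deficiency it was thus low in 6-4 on 2 arrays with opposite dyes and near 0 on the third. Its difference was -1.13 ± 0.30 (adjusted p = 0.0415). The S-phase-specific protein RSPSP94, AK059647, had ratios of 0.25, 0.61 and 0.56 under control and 0.16, -0.027 and -0.041 under P deficiency. Here the conditions did not overlap, every control array being higher in 6-4, and the difference was -0.49 ± 0.13 (adjusted p = 0.0418).

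Of the 9 probes with a higher ratio under P deficiency, the L13 probe AK104146 changed most. Its ratios were -0.37, -0.73 and -0.25 under control and 0.34, 0.66 and 0.29 under P deficiency. Every control array was below 0 and every P-deficient array above 0. The line effect was -0.51 ± 0.068 under control (adjusted p = 0.0167) and 0.49 ± 0.068 under P deficiency (adjusted p = 0.021), and the difference 1.01 ± 0.10 (adjusted p = 0.00532). Its description cites an Arabidopsis locus known for an organellar ribosomal protein, a source that the words of the rule do not catch.

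The conditions did not overlap in ratio for other probes of that direction. All probes with a difference past the threshold were picked by a test of these same ratios, so such a gap adds nothing to that test. The share of all probes with a gap in ratio was not counted. The S24 probe AK061740 had -0.67, -0.28 and -0.081 under control and 0.27, 0.35 and 0.31 under P deficiency, with a difference of 0.65 ± 0.17 (adjusted p = 0.0424). It was dim in 6-4 on control 1 and control 3, where Cy3 was not well above background. The S27a probe AK059242 had -0.47, -0.29 and -0.19 and then 0.12, 0.43 and 0.063. Narrow gaps parted the conditions for AK066379 (named ribosomal protein I after a fern), AK062414 (L12) and AK060503 (S9), with differences of 0.68 ± 0.11, 0.51 ± 0.11 and 0.41 ± 0.10. The conditions overlapped for AK065820 (S5), AK099805 (L29) and AK099043 (L18), with differences of 0.62 ± 0.14, 0.61 ± 0.15 and 0.51 ± 0.11.

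These 16 probes were dim for ribosomal proteins, with log2 levels on control 1 between 6.72 and 9.08, under the members' median. All 7 probes with a lower ratio under P deficiency had a dye term above 0, from 0.073 to 0.75. Of the 9 with a higher ratio, 8 had a dye term below 0, and the highest was 0.008. The dyes are unbalanced within each condition, so errors of the dye term and of the difference run in opposite directions in the fit. A pick by the difference thus favours dye terms of the opposite sign. The share of all probes past the threshold with such a sign was not counted. Control 2 was the highest of the 6 arrays for 7 of the 7, and P-deficient 2 the lowest for 6. Control 2 was the lowest for 7 of the 9, and P-deficient 2 the highest for 9. Those are the 2 arrays with bright negative controls in Cy3, and they hold the lines in opposite dyes. Each is also the only array of its condition with its dye orientation, so these 2 weigh most in the fitted difference. Probes picked by that difference will tend to have their extremes there. The share of all probes past the threshold with such extremes was not counted. The part of the dye and of the bright controls in the differences was not tested.

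The counts rested on single arrays and on the dye term, and those of all probes moved with them. Without control 2 or without a dye term, 0 ribosomal protein probes and 0 of all probes passed in the difference (limma). Without P-deficient 1, 2 or 3, the ribosomal protein probes past the threshold were 6, 4 and 5, beside 7.91%, 4.82% and 6.71% of all probes. Without control 3 they were 23 of 135, which is 17% beside 30%. The line effect under control gave 0 without control 2, P-deficient 1 or P-deficient 3, beside 0.00976%, 1.49% and 0.122% of all probes. That under P deficiency gave 0 without any 1 of the P-deficient arrays, beside at most 0.0439% of all probes. It gave 2 without control 2, 12 without control 1 and 18 without control 3, beside 2.23%, 12.4% and 21.8%.

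**Figure D3:**
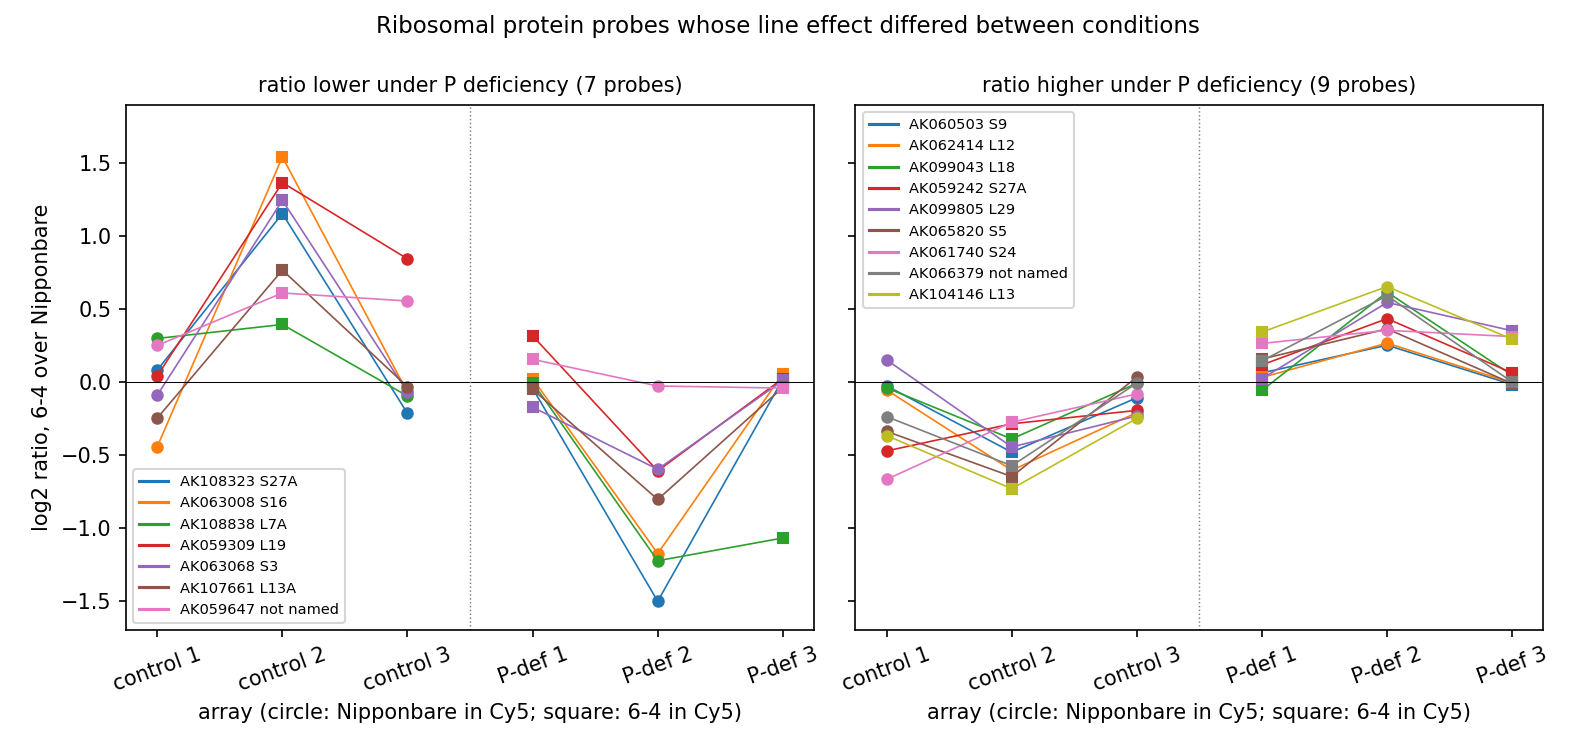
Log2 ratio of 6-4 over Nipponbare (vertical axis) on each array (horizontal axis) for the 16 ribosomal protein probes whose line effect differed between the conditions, 7 lower (left) and 9 higher (right) under P deficiency. Circles mark arrays with Nipponbare in Cy5 and squares those with 6-4 in Cy5, and lines join arrays of one condition. Control 2 and P-deficient 2 hold most of the extreme values, and they weigh most in the fitted difference by which the probes were picked.

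Ribosomal protein transcripts had somewhat lower levels under P deficiency as a group, with no probe past the test, and with 4 past it (beside 4.28% of all probes) when the replicate number was a block. The median log2 response, as the mean of both lines, was -0.13 over 137 probes and -0.009 over all 20531. The response was below 0 for 103 of the 137. It was above 0 for 24.8%, beside 47.9% of all probes. At an adjusted p below 0.05, 0 of the 137 responded, where 1.51% of all probes did (1.04% higher and 0.468% lower). At an unadjusted p below 0.05 (limma) the count was 16, beside 11% of all probes.

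The group's median log2 level was 11.65, 11.84 and 12.31 on control 1, 2 and 3 and 11.73, 11.43 and 11.73 on P-deficient 1, 2 and 3. Control 1 lay below 2 of the P-deficient arrays, so the conditions overlapped, and control 3 stood highest. Without control 3 the median response was -0.045, without P-deficient 2 it was -0.088 and without control 1 it was -0.20. Among the 131 probes measured on every array, 25 had levels that did not overlap between conditions, 20 lower under P deficiency and 5 higher. That is 19.1%, where 16.6% of all probes did not overlap. Lower without overlap was 8.97% of all probes and higher without overlap 7.67%.

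Root markers were lower under P deficiency too. The log2 of the level summed over all 9 of these probes was 15.79 to 16.05 on control arrays. On P-deficient arrays it was 15.21 to 15.32. Of the 8 tested probes, 3 passed the test (limma), 37.5% beside 1.51% of all probes. For all 17 probes of the leaf genes the log2 sum was 13.92 to 14.37 on control and 13.93 to 14.15 on P-deficient arrays. The part of root makeup in the ribosomal protein levels was not tested. Bright probes that are no ribosomal proteins, 1013 of them, had a median response of -0.054.

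**Figure D4:**
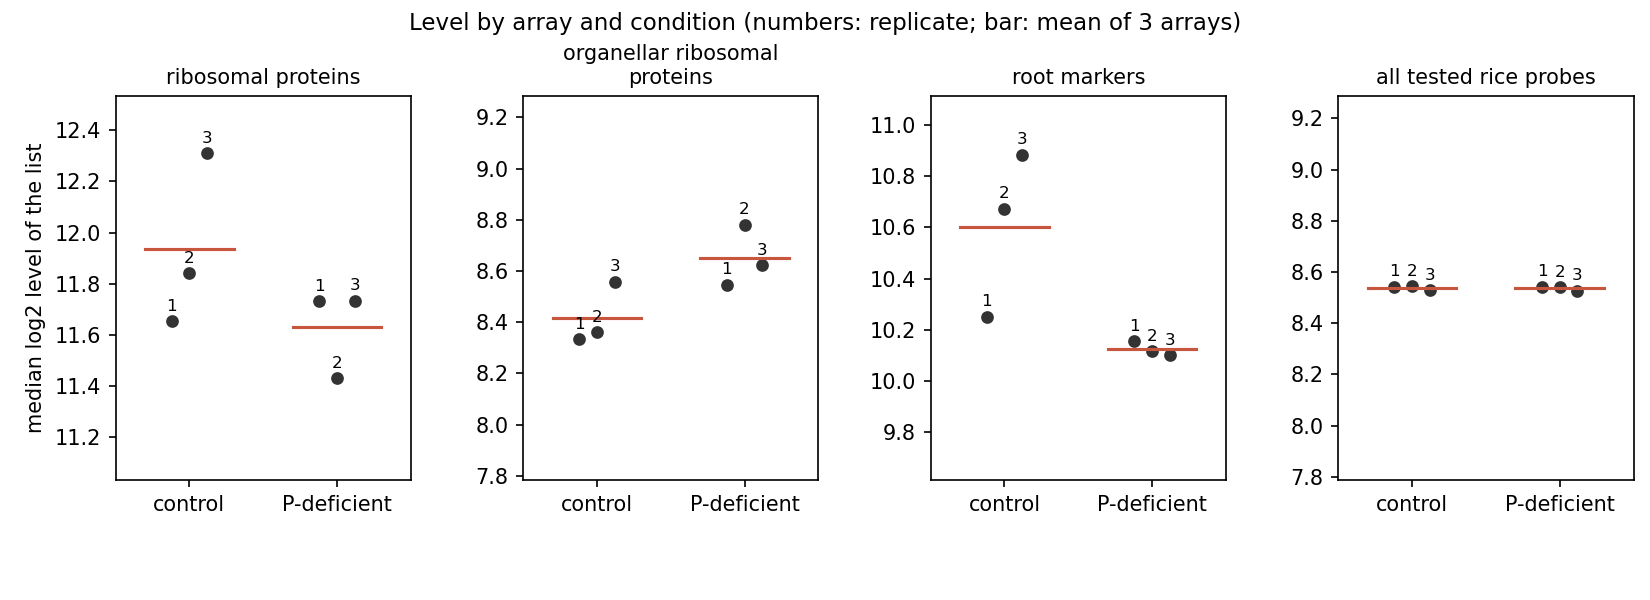
Median log2 level (vertical axis, each panel spanning 1.5 log2 units) of 4 probe lists on the 3 control and 3 P-deficient arrays (horizontal axis), each point being an array with its replicate number and bars the mean of 3 arrays. Ribosomal proteins and root markers are lower on average under P deficiency, organellar ribosomal proteins are higher, and all tested probes lie between 8.53 and 8.54. Normalization between arrays makes the last panel flat by construction.

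The lowest response belonged to the S7 probe AK061276, a small-subunit protein. Its log2 level was 12.19, 12.58 and 12.64 on the control arrays and 12.03, 11.78 and 11.85 on the P-deficient arrays, with no overlap. The response was -0.59 ± 0.16 (SE, adjusted p = 0.165). The stalk protein P2a, AK058815, had levels of 12.14, 12.46 and 12.62 and then 11.81, 11.67 and 12.03, and a response of -0.57 ± 0.17 (adjusted p = 0.206). The S8 probe AK102402 had 11.91, 12.47 and 12.44 and then 11.82, 11.56 and 11.77, at -0.56 ± 0.18 (adjusted p = 0.255). All 3 probes were lower on every P-deficient array than on any control array. Probes at either end of the mean response were picked by these same levels, so such a gap adds little to the response. The L19 probe AK059309 was the fourth, at -0.54 ± 0.28, and its levels overlapped.

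The highest response belonged to the L12 homolog AK062414. Its level was 9.08, 9.04 and 9.24 on the control arrays and 9.65, 10.14 and 9.98 on the P-deficient arrays, every P-deficient array being above every control array. The response was 0.80 ± 0.16 (adjusted p = 0.0522). The S9 probe AK060503 had 8.18, 8.21 and 8.64 and then 8.70, 9.12 and 9.20, and a response of 0.66 ± 0.19 (adjusted p = 0.187). The S5 probe AK065820, described after spinach, had 7.29, 7.62 and 7.78 and then 7.89, 8.22 and 8.34, at 0.58 ± 0.18 (adjusted p = 0.228). L12, S9 and S5 are names in use for bacterial-type ribosomes as well, and these descriptions do not say which ribosome is meant. The dim S6 probe AK109085 was the fourth highest at 0.46 ± 0.21, with overlap.

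In Nipponbare the median response was -0.18 over 131 probes, with 97 below 0. It was -0.098 without control 3 and -0.12 without P-deficient 1. There 0 passed the test (limma), beside 0.883% of all probes, and 7 passed with the replicate block, beside 12.1%. At an unadjusted p below 0.05 the count was 12, beside 15.5% of all probes. In 6-4 the median was -0.10, with 89 below 0. There 2 passed, both higher under P deficiency, which is 1.53% beside 1.44% of all probes (1.11% higher and 0.329% lower), and 14 passed with the replicate block, beside 14.8%. They were AK062414 (L12) at 1.06 ± 0.17 (adjusted p = 0.00686) and AK060503 (S9) at 0.87 ± 0.19 (adjusted p = 0.043). In Nipponbare the same probes stood at 0.55 ± 0.17 and 0.45 ± 0.19. The difference between the lines in this response is the line-by-condition difference given above, 0.51 ± 0.11 for L12 (adjusted p = 0.023) and 0.41 ± 0.10 for S9 (adjusted p = 0.0367).

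In single channels the L12 probe read 9.11, 9.34 and 9.35 in Nipponbare control roots and 9.63, 10.01 and 9.98 in P-deficient ones. In 6-4 it read 9.05, 8.73 and 9.14, then 9.66, 10.28 and 9.97. Both lines were higher in every P-deficient sample than in any control sample. The L7A probe AK108838 read 8.096, 7.849 and 8.084 in Nipponbare control roots and 8.91, 9.07 and 8.71 in P-deficient ones, while 6-4 read 8.39, 8.24 and 7.99, then 8.90, 7.84 and 7.64. The conditions did not overlap in Nipponbare and did in 6-4.

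The median response in 6-4 turned to 0.041 without control 3, and to 0.019 on the 4 arrays read with software version 7.1, where 0 probes passed. Leaving out control 1, control 2, P-deficient 2 or P-deficient 3 each left 0 of 131 past the threshold in 6-4, beside 0.364%, 0.374%, 0.568% and 0.623% of all probes. Leaving out P-deficient 1 left 1, which is 0.763% beside 0.554%, and leaving out control 3 gave 4, which is 3.05% beside 1.13%.

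**Figure D5:**
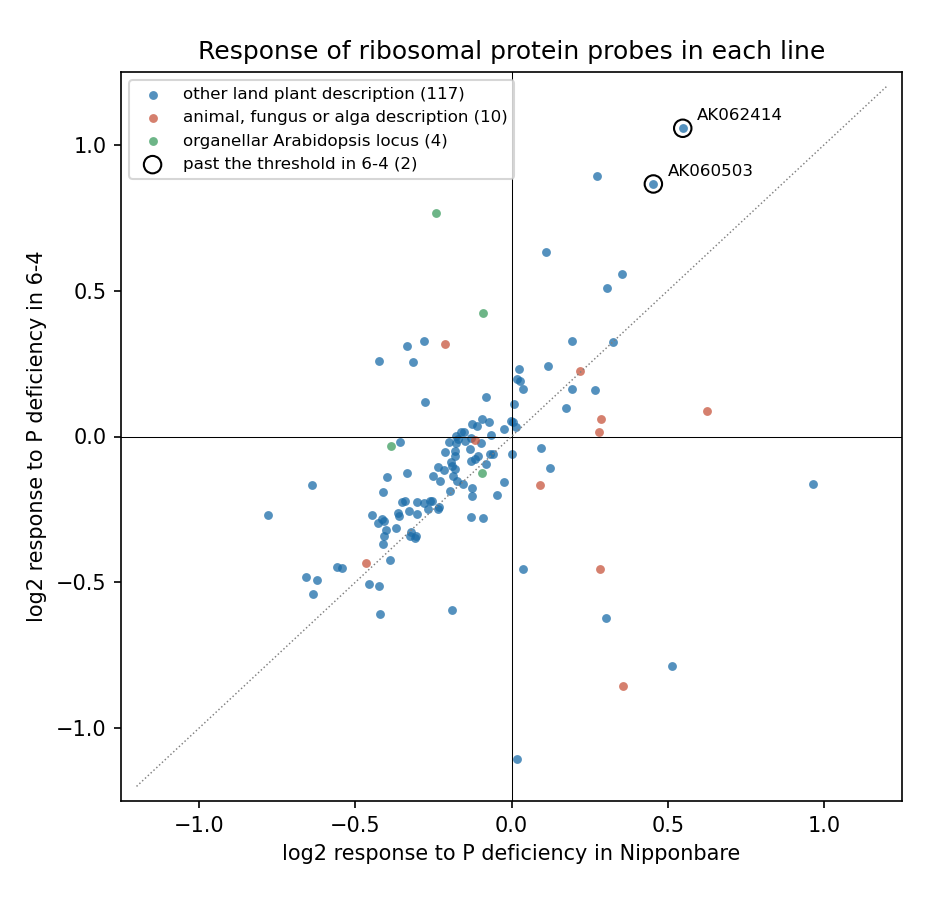
Log2 response to P deficiency in Nipponbare (horizontal axis) and in 6-4 (vertical axis) for 131 ribosomal protein probes, coloured by the kind of sequence their description names. Most points lie at the lower left, the 2 ringed probes passed the test in 6-4 (AK062414 at 1.06 and AK060503 at 0.87), and the lines share arrays, so the axes are not independent.

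Arrays with the same replicate number deviated together in level, so the fit was also run with the replicate number as a block. With the block, 4 of 137 responses passed as the mean of both lines, 2.92% beside 4.28% of all probes. They were L12 at an adjusted p of 0.0148, S5 at 0.024 and S9 at 0.0253, which rose, and P2a at 0.0475, which fell. In Nipponbare 7 of 131 passed, 5.34% beside 12.1% of all probes, 3 higher and 4 lower. Among them were L12 (adjusted p = 0.031), S9 (adjusted p = 0.0379), L7A AK108838 (adjusted p = 0.0291) and P2a (adjusted p = 0.0447). In 6-4 14 passed, 10.7% beside 14.8%, 6 higher and 8 lower. The 6 higher ones were L12, S9, S5, L13 AK104146, L18 AK099043 and S6 AK109085. AK109085 was well above background in 6-4 on 1 of the 3 control arrays. Of the lower ones, AK065009, described as similar to ribosomal protein 41, and AK108868, described after yeast YS3, passed in both lines. AK065009 stood at -0.56 in Nipponbare and -0.45 in 6-4, with its P-deficient 1 spot dim in Cy3, and AK108868 stood at -0.47 and -0.43. The lower L19, S27a, S16 and S3 probes were not well above background in 6-4 on P-deficient 2, so no size is given for them.

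Descriptions divided the ribosomal protein probes further. Those described after an animal, fungus or alga sequence, 5, 4 and 1 probes, were dim, with a mean of the array medians of 7.96 ± 0.21 (SD over 6 arrays), against 12.01 ± 0.25 for land plant descriptions. Their median line effect was -0.025, with 2 of 10 above 0, and their median response 0.006. The probes described after a land plant sequence had a median line effect of 0.12, with 105 of 126 above 0, and a median response of -0.15, with 98 of 127 below 0. Of 5 probes that cite an Arabidopsis locus of an organellar ribosomal protein, 4 were tested, at a level of 8.61 ± 0.13. Without all these, 122 probes had a median line effect of 0.13, and 123 a median response of -0.15.

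The label of cytosolic proteins thus holds for most but not all of the 141. By description 126 were free of animal, fungus, alga and organellar sources. The 5 organellar probes named L13, L18, L5, L3 and S1 are to be read apart, among them AK104146 and AK099043 of the 16 above.

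The organellar ribosomal proteins left out by the rule, 28 probes, gave other values. Their array medians averaged 8.42 ± 0.12 (SD, n = 3) on control arrays and 8.65 ± 0.12 (SD, n = 3) on P-deficient arrays, with control 3 at 8.56 just above P-deficient 1 at 8.55. The median response was 0.14, with 22 of 28 above 0 and 0 past the test (limma), beside 47.9% and 1.51% of all probes. At an unadjusted p below 0.05 the count was 5, beside 11%. Of 26 measured on every array, 6 did not overlap, which is 23.1% beside 16.6% of all probes, and all 6 were higher under P deficiency, where 7.67% of all probes were. The median line effect of the organellar list was -0.044. No test of the difference between the lists was made.

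Other lists of the translation machinery were measured too. Translation factors, 62 tested probes, had a median line effect of 0.052 with 47 above 0, and a median response of -0.046 with 37 below 0. Of them 1 passed in the mean line effect and 1 in the mean response, each lower. That is 1.61% in each, beside 0.926% and 1.51% of all probes. Aminoacyl-tRNA synthetases, which charge tRNA with amino acids, had 48 tested probes with medians of 0.065 and -0.074. There 0 passed in either (limma). At an unadjusted p below 0.05 the counts were 9 and 4, beside 17.1% and 11% of all probes. Proteins of ribosome assembly and the nucleolus had 9 probes with medians of 0.076 and -0.098. Again 0 passed in either, with 2 and 0 at an unadjusted p below 0.05, beside the same shares of all probes. The S6 kinase list had 0 probes.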

How the data were processed

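RNA of 2 rice lines was compared on 6 arrays, and the labels gave condition, replicate and dye. The deposited intensity of each spot and of its surroundings came from Agilent Feature Extraction, 7.1 or 8.1 per the file headers. For P-deficient replicate 2 the header says 7.1 and the submitters' processing notes say 8.1. Log10 ratios that the authors deposited served in an alternative.

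Intensities were corrected by normexp (offset 50) and loess in limma 3.58.1 (R 4.3.3), without 569 outlier spots. A probe was tested if at least 1 line in 1 condition was well above background in all 3 of its samples. Log2 ratios were fitted with a coefficient per condition and a dye term. Responses were fitted on mean log2 intensity after Aquantile, and within lines on single channels (lmscFit, intraspot correlation 0.785). Aquantile gives all arrays the same distribution of level, and loess centres the ratios of an array near 0. Shifts of a group are therefore relative to all probes. Adjusted p is Benjamini-Hochberg over all tested probes, threshold 0.05. The scripts were tested on simulated data.

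Same-numbered arrays deviated together in level (correlations 0.392, 0.314 and 0.66), so blocked responses are given. Probes named are those past the threshold, the 4 at either end of the mean line effect and of the mean response, the 3 differences largest in size, the 4 smallest p among probes of one sign on all arrays, and probes that share a protein name with these. AK064857, AK065009 and AK108868 were singled out after their values were seen. The L34, L22 and S12 probes lie outside this rule and serve as examples of protein names with like or differing values. Stalk proteins and ubiquitin fusions were grouped by role. Members and lists were chosen with earlier results of these data known, and list words were corrected after descriptions were read. The alternatives are in the closing section.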

Additional observations from a re-analysis of the deposited data

Results flagged for a closer look

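The line effect of 16 ribosomal protein probes differed between the conditions by the test of that difference itself (limma, adjusted p below 0.05), where 19.6% of all probes did. The values are the log2 line effect under P deficiency minus that under control. It was -1.302 for S27a AK108323, -1.211 for S16 AK063008, -1.129 for L7A AK108838, -1.125 for L19 AK059309 and -0.923 for S3 AK063068. It was -0.738 for L13A AK107661 and -0.492 for the S-phase-specific AK059647. Above 0 it was 0.412 for S9 AK060503, 0.509 for L12 AK062414, 0.513 for L18 AK099043 and 0.572 for S27a AK059242. It was 0.61 for L29 AK099805, 0.619 for S5 AK065820, 0.647 for S24 AK061740, 0.681 for AK066379 and 1.007 for L13 AK104146. On P-deficient 2, AK108323, AK063008, AK059309, AK063068 and AK107661 were not well above background in Cy3, nor were AK063008 and AK063068 on control 2, and their differences rest on those dim spots. AK063008 and AK063068 passed the filter through Nipponbare under P deficiency and 6-4 under control. AK061740 was dim in Cy3 on control 1 and 3, and AK099805 on control 3. Without a dye term 0 of these differences passed, and the dye terms and arrays that moved with them are given in the report.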

How the results depend on the processing

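Members' counts past the threshold (limma, adjusted p), then those of all probes, changed as follows. With the authors' deposited ratios the line effect under control gave 3 and 718 (473 higher, 245 lower), under P deficiency 3 and 185, their difference 7 and 1986 (607 higher, 1379 lower), and the mean line effect 19 probes in all. With median centring these were 3 and 827 (103 higher, 724 lower), 0 and 40, 9 and 2139 (1623 higher, 516 lower), and 64. With no dye term they were 0 and 24, 0 and 13, 0 and 0, and 40. The median difference turned to -0.052 with median centring and to -0.006 with no dye term.

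With the replicate block, the line effect gave 1337 probes under control, 3 members and 704 probes under P deficiency, 8 and 2520 for the difference, and 309 probes for the mean. Blocked responses gave 4 and 878 as the mean, 7 and 2423 in Nipponbare, and 14 and 2959 in 6-4. Same-numbered arrays held the lines in opposite dyes, so their line ratios cannot show whether the numbers pair them.

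With software version as a block, the line effect gave 5 members under control (3.68% beside 9.58% of all probes) and 3 and 1129 under P deficiency. Responses gave 2 and 746, 1 and 899, and 5 and 1046. Within version 7.1, 22 of 135 members passed under P deficiency, 16.3% beside 10.7% of all probes. There 0 probes passed in Nipponbare, and 0 members and 2 probes in 6-4, where the median was 0.019. With no filter on dim probes 9 of 140 members passed under P deficiency, 6.43% beside 10.3%. With no normalization between arrays responses gave 170 probes, 7 in Nipponbare, and 0 members and 26 probes in 6-4. Signals processed by the scanner software gave 82, 78, and 1 and 174. Without both arrays with bright negative controls, an alternative chosen after seeing the data, the mean line effect gave 34 probes and the mean response 15.

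Leaving out 1 array gave 0 to 2 members and 21 to 840 probes for the mean line effect, 0 to 13 and 2 to 4243 under control, 0 to 18 and 6 to 4478 under P deficiency, and 0 to 23 and 0 to 6147 for the difference. For responses it gave 0 members and 90 to 223 probes as the mean, 0 and 15 to 89 in Nipponbare, and 0 to 4 and 73 to 226 in 6-4. Medians ran from 0.09 to 0.141, 0.035 to 0.149, 0.131 to 0.201, 0.009 to 0.131, -0.205 to -0.045, -0.237 to -0.098 and -0.219 to 0.041, in that order of comparisons. Of 52 values of single probes, 0 turned direction under these settings. The 52 were chosen for their size, direction or p, so a steady direction adds little. Over 685 refits of these values, 451 kept their side of the threshold, 226 fell short of it and 8 newly passed. With no dye term 31 of 42 fell short, and without control 2, 31 of 52. The cause of the changes was not tested.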
